A study of Glycine max with 8 samples.

Results

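The middle of a soybean chromosome, here the stretch between 40 and 60% of its span, held 25935 of the 442104 MNase hypersensitive sites listed in the series (5.87%). Such sites are stretches that micrococcal nuclease releases as short fragments under light digestion, and they mark open chromatin. A site was counted in the middle when its midpoint lay in that stretch of chromosomes 1 to 20, with chromosome 13 left out. The span of a chromosome is the largest site end over the 8 lists, so the choice used position and no score, width or count. The middle of the 19 chromosomes covers 181 Mb, and the rest, the parts below 40% and above 60%, covers 722 Mb.

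The libraries came from soybean (Glycine max) of the cultivar Williams 82, with 2 libraries per tissue. Roots and leaves were taken from greenhouse seedlings at stage V2, seeds from greenhouse plants at stage R4 and flowers from field plants at stage R1. The seed records give R4, while the protocol text of the other records gives R1 for the seed plants. Flower libraries thus differ from the others in growth place as well, and leaf libraries in starting material, with 0.5 g of powder against 1 g for root, seed and flower. All samples were fixed in 1% formaldehyde for 10 min, digested with 0.01, 0.03 or 0.1 unit of the nuclease for 10 min, and sequenced from fragments shorter than 100 bp. No genetic change or treatment separates the groups, and whole tissues were used, so each list averages over the cell types of a tissue.

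Plant genomes with long chromosomes usually carry their genes, and most of their open chromatin, towards the chromosome ends. The interior around the centromere is rich in repeats and packed as heterochromatin, which is less open and recombines little. In soybean such interior chromatin makes up a large part of the genome. The middle by length is not the centromere itself, and the files give no centromere positions. Genes were not assigned to sites because no source used here names the genome build of the lists.

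Of the sites on the 19 chromosomes, the middle held 2705 in root 1 and 2847 in root 2, 4528 in seed 1 and 3762 in seed 2, 2321 in flower 1 and 2627 in flower 2, and 3466 in leaf 1 and 3679 in leaf 2. As a share of each library, root held 18.8 and 15.9%, seed 5.87 and 6.36%, flower 5.00 and 4.57%, and leaf 4.95 and 5.34% of its sites there. The middle is 20% of the span, so root sites came near an even share of the length and the others held far fewer. The site lists give no read numbers, so depth is unknown, and a position without a site need not be closed. The whole lists ran from 15185 sites in root 1 to 82798 in seed 1. Positions are on the build of the lists, printed counting from 1. The lists name no genes, so the tissue labels could not be checked against markers.

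In every library the middle was sparser than the rest of the same chromosomes. Root had 15.0 and 15.8 sites per Mb in the middle against 16.2 and 20.8 in the rest. Seed had 25.1 and 20.8 against 100.5 and 76.6, flower 12.9 and 14.5 against 61.0 and 75.9, and leaf 19.2 and 20.4 against 92.1 and 90.3. Middle density was thus between 0.192 and 0.272 of that in the rest in seed, flower and leaf, and 0.926 and 0.759 of it in root. The log2 ratio of middle to rest averaged -1.68 ± 0.896 (SD, n = 8 libraries) and was negative in 8 of 8 (two-sided exact sign-flip permutation test, p = 0.00781, the smallest 8 libraries allow, adjusted p = 0.0195 over 5 measures). Sites covered 0.148 and 0.144% of the middle against 0.137 and 0.168% of the rest in root, and 0.240 to 0.516% against 1.17 to 2.11% in the other libraries. With sites of at least 100 bp the root ratios were 1.42 and 1.14, above the rest, and the density call was lost (exact permutation, adjusted p = 0.0781).

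As tissue means the log2 density ratio was -0.25 ± 0.203 in root, -1.94 ± 0.0877 in seed, -2.32 ± 0.0965 in flower and -2.21 ± 0.0809 in leaf (SD, n = 2 each). Libraries of a tissue lay close together: among all ways of pairing the 8 libraries, few gave tissue means as far apart (exact one-sided permutation p = 0.0190, adjusted p = 0.0254 over 4 measures). Without root the exact permutation p was 0.133, where the 15 pairings left cannot go below 0.0667. The adjusted exact permutation p rose above the threshold of 0.05 without leaf 2 (0.0571), flower 2 (0.0762) or seed 2 (0.0635). An inner-to-outer difference of root from the other tissues was already known from these lists, so this is not independent evidence.

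**Figure D1:**
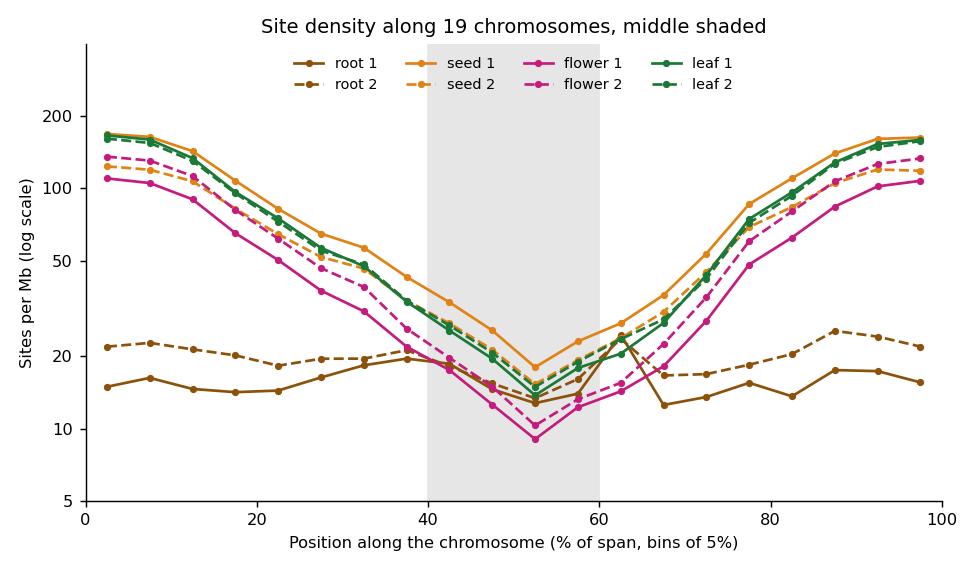
Sites per Mb (log axis) in bins of 5% of the span, over 19 chromosomes, with 1 line per library and the middle shaded. Seed, flower and leaf fall to their lowest density between 50 and 55% of the span, at 9.04 to 18.0 sites per Mb, while root stays between 12.5 and 25.5 over the whole span.

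The seed, flower and leaf densities had no step at the borders of the middle. In leaf 1 the density was 25.6 sites per Mb just inside, between 40 and 45% of the span, and 33.8 just outside, between 35 and 40%. At the upper border it was 17.9 inside, between 55 and 60%, and 20.5 outside, between 60 and 65%. Root 1 had 18.6 inside and 19.6 outside the lower border, and 14.0 inside and 24.6 outside the upper one. In the plot of density along the chromosome, the seed, flower and leaf curves form a smooth trough, whereas both root curves rise just above 60%.

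The order of chromosomes by middle density was nearly the same in seed, flower and leaf and different in root. Chromosome 8 was densest in these 3 tissues, where seed had 42.7 and 33.6 sites per Mb, flower 23.9 and 29.4, and leaf 35.9 and 35.5. Chromosome 4 was sparsest in each of them, where seed had 12.98 and 10.7, flower 6.30 and 5.25, and leaf 8.50 and 11.1. In root the densest middle was that of chromosome 2, with 39.3 and 34.2 sites per Mb, and the sparsest that of chromosome 10, with 7.56 and 9.89. The next densest overlapped the first in seed, where chromosome 11 had 38.7 and 31.6, but not in flower (chromosome 11, 17.8 and 22.4), leaf (chromosome 2, 26.5 and 32.2) or root (chromosome 7, 26.8 and 23.6). At the low end, chromosome 3 of root, with 9.50 and 10.2, overlapped chromosome 10, and chromosome 10 of leaf, with 10.8 and 11.7, overlapped chromosome 4. In seed and flower, chromosome 10 was next and did not overlap chromosome 4, with 14.4 and 13.8 in seed and 7.37 and 8.14 in flower.

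Over the 19 chromosomes, Pearson's r of the mean middle densities was 0.94 for seed and flower, 0.92 for seed and leaf, and 0.90 for flower and leaf. With root it was 0.079 for seed, -0.048 for flower and 0.33 for leaf. These r values are descriptions, since chromosomes share their libraries and differ in length and sequence. Between the 2 libraries of a tissue r was 0.97 for root, 0.98 for seed, 0.96 for flower and 0.96 for leaf.

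Chromosome 2 was an exception to the sparse middle in root. Its middle held 2.85 and 1.68 times as many root sites per Mb as its rest, and that of chromosome 7 held 1.96 and 1.27 times as many. Both root libraries were sparser in the middle on 12 of 19 chromosomes and denser on 3. In seed, flower and leaf both libraries were sparser in the middle on 19 of 19 chromosomes. The densest chromosome of root thus stood above its own rest, which no chromosome did in the other tissues.

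**Figure D2:**
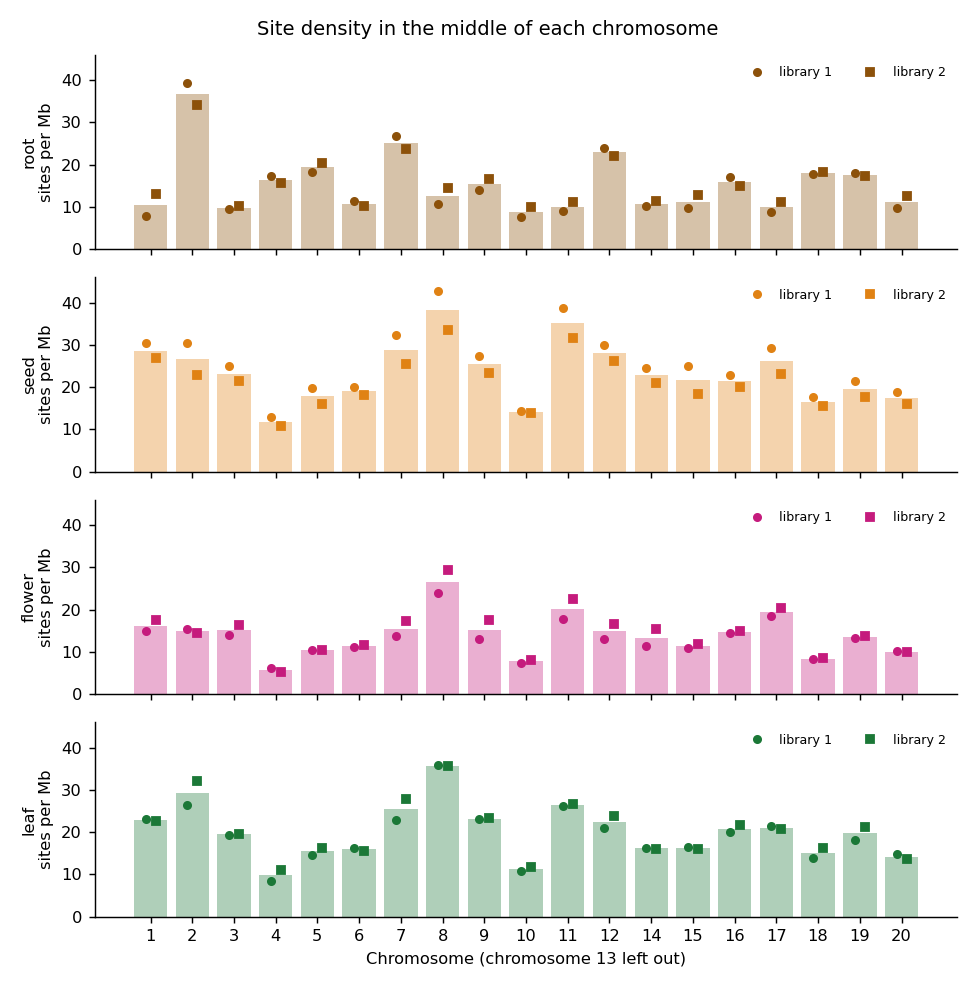
Sites per Mb in the middle of each of 19 chromosomes, with points for the libraries and a bar for their mean, 1 panel per tissue. Root peaks on chromosome 2, with 39.3 and 34.2 sites per Mb, and seed, flower and leaf on chromosome 8.

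Site width differed by tissue in direction and by little in size. The median site width was 74.0 and 69.0 bp in the middle against 68.0 and 66.0 bp in the rest for root sites, and 179 and 167 bp against 184 and 164 bp for seed sites. Flower sites measured 159 and 168 bp against 167 and 172 bp, and leaf sites 190.5 and 178 bp against 202 and 191 bp. Leaf and flower sites were narrower in the middle in 4 of 4 libraries and root sites wider in 2 of 2. Without the 10 middle windows densest in root, which are described further on, the direction in root turned, with 67.0 and 65.0 bp in the middle against 68.0 and 66.0 bp in the rest. Over the 8 libraries the log2 ratio averaged -0.015 ± 0.0785 and did not pass the exact sign-flip permutation test (p = 0.594, adjusted p = 0.594). Tissues did differ in it by the pairing test (exact permutation p = 0.0190, adjusted p = 0.0254), where root averaged 0.093 ± 0.0409, seed -0.0068 ± 0.0466, flower -0.052 ± 0.0261 and leaf -0.093 ± 0.0121 (SD, n = 2 each). Leaving out leaf 1, leaf 2, flower 1, flower 2, seed 2 or root 1 raised that adjusted exact permutation p to between 0.0635 and 0.140.

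The root lists hold sites from 49 bp and the other lists from 100 bp, so widths are compared only within a list. Sites under 100 bp made up 70.6 and 75.5% of the middle sites of root, against 80.8 and 83.6% in the rest. With the widest part of each list alone, from its median width upwards, middle sites were wider than the rest, with a mean log2 ratio of 0.050 (exact permutation, adjusted p = 0.0260). The call on width therefore depends on which sites are counted, and the tissue difference was lost there (exact permutation, adjusted p = 0.0857).

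Middle sites of seed, flower and leaf were spaced more widely but unevenly. The median gap from a site to the next of the same list was 11.6 and 21.3 kb in the middle against 29.9 and 24.9 kb in the rest for root. Seed had 6.48 and 8.61 kb against 3.45 and 4.85 kb, flower 18.7 and 13.8 kb against 5.69 and 4.18 kb, and leaf 10.2 and 8.14 kb against 3.60 and 3.66 kb. Gaps were longer in the middle in the 6 libraries of seed, flower and leaf and shorter in both root libraries. The mean log2 ratio over 8 libraries, 0.78 ± 1.07, did not pass (exact sign-flip permutation p = 0.0859, adjusted p = 0.143). Tissues differed (exact permutation p = 0.00952, the smallest the pairings allow, adjusted p = 0.0254), with a mean log2 ratio of -0.80 ± 0.807 in root, 0.87 ± 0.0570 in seed, 1.72 ± 0.0013 in flower and 1.33 ± 0.252 in leaf. Without flower 1, flower 2 or seed 2 the adjusted exact permutation p was 0.0635 to 0.0762, and without root 0.133.

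By the spacing of neighbouring sites, the middle was more uneven than the rest. The median gap divided by the mean gap, which is 0.693 for an even random scatter and falls as sites gather, was 0.178 and 0.341 in the middle against 0.488 and 0.520 in the rest for root. Seed had 0.167 and 0.186 against 0.356 and 0.379, flower 0.249 and 0.208 against 0.354 and 0.325, and leaf 0.204 and 0.171 against 0.341 and 0.339. The value was lower in the middle in 8 of 8 libraries, with a mean difference of -0.175 ± 0.0639 (SD, n = 8, exact sign-flip permutation p = 0.00781, adjusted p = 0.0195). The call was lost without the 10 middle windows densest in root (mean difference -0.102, exact permutation, adjusted p = 0.0521). Without root the mean difference was -0.152, lower in 6 of 6 libraries, and the exact permutation p was 0.03125, the smallest 6 libraries allow, or 0.0521 adjusted. The difference between tissues did not pass (exact permutation p = 0.0857, adjusted p = 0.0857). In seed both libraries were lower in the middle on 19 of 19 chromosomes, in leaf on 13, in flower on 11 and in root on 10.

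On the scale of 1 Mb windows the order was the other way in seed, flower and leaf. The variance of the counts per window divided by their mean was 36.0 and 20.5 in the middle against 22.3 and 11.7 in the rest for root. Seed had 13.7 and 11.2 against 47.6 and 31.8, flower 8.42 and 10.7 against 37.4 and 47.1, and leaf 11.2 and 12.8 against 54.5 and 51.8. Counts per window were thus more uneven in the middle in both root libraries and less uneven in the other 6. This ratio also takes in the trend of density along the chromosome and grows with the mean count, and it was not tested.

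Short and long gaps stood side by side in the middle. Gaps under 1 kb made up 28.6 and 21.7% of the middle gaps against 15.9 and 14.0% of those in the rest for root. Seed had 24.2 and 21.7% against 24.7 and 19.6%, flower 17.98 and 19.5% against 18.7 and 22.5%, and leaf 21.2 and 23.4% against 24.1 and 24.2%. In seed, flower and leaf the share of such short gaps was therefore close to that in the rest although density was much lower. Gaps over 100 kb made up 10.8 to 21.4% of the middle gaps in these 3 tissues, against 1.15 to 2.29% in the rest. The longest stretch of the middle with no site in any of the 8 lists lay on chromosome 6 (chr6:25735933-26160652) and spanned 425 kb, followed by 421 kb on chromosome 17 (chr17:21230868-21651673). These stretches were chosen after their values were seen.

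By score, middle sites ranked near the middle of their lists. The score is the authors' own value per site, present in the seed, flower and leaf lists, and it was used only as a rank within a list. The median seed site stood at percentile 52.2 and 54.9 of its list in the middle, against 49.9 and 49.7 in the rest. Flower stood at 51.03 and 49.9 against 49.8 and 49.9, and leaf at 47.9 and 49.9 against 50.1 and 50.0. The mean difference was 1.06 ± 2.51 percentile points (SD, n = 6, exact sign-flip permutation p = 0.438, adjusted p = 0.547). Both seed libraries ranked higher in the middle and both leaf libraries lower, leaf 2 by little (-0.102 points). Sites in the top 10% of scores made up 12.96 and 13.7% of the middle sites of seed, 11.3 and 11.6% of those of flower, and 10.6 and 11.7% of those of leaf, each above the 9.82 to 10.0% of the rest.

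**Figure D3:**
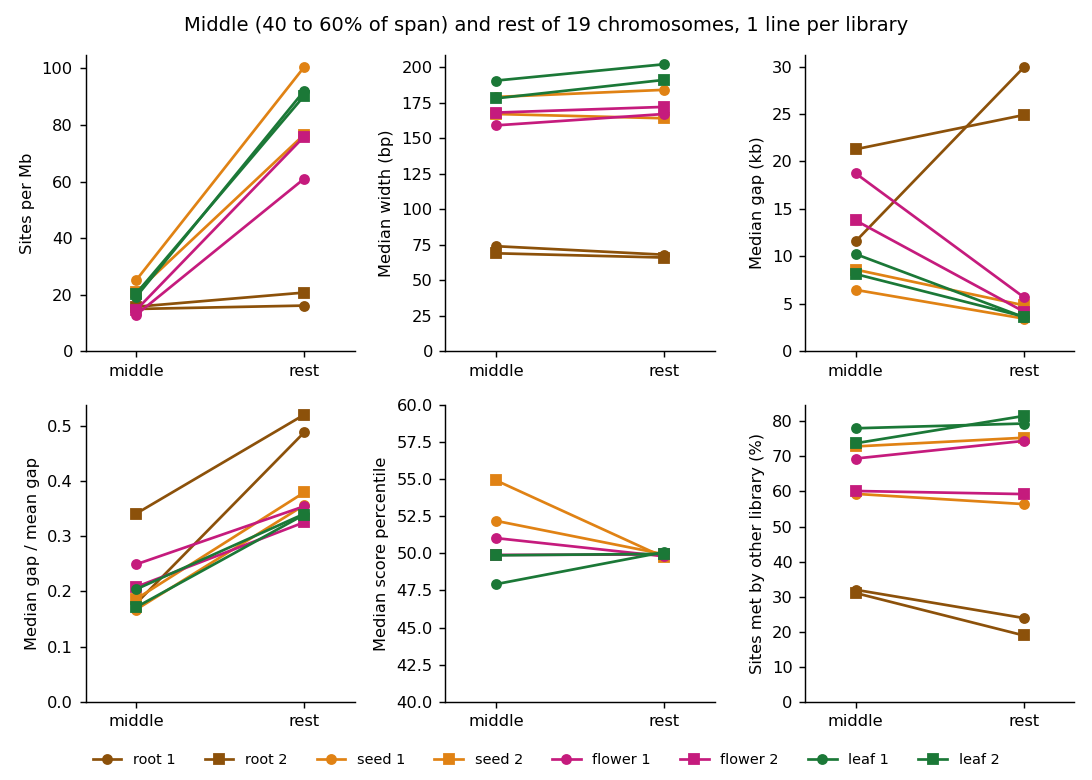
The 6 measures for the middle (left) and the rest (right) of the 19 chromosomes, with 1 line per library: sites per Mb, median width in bp, median gap in kb, median gap over mean gap, median score percentile (axis from 40 to 60) and the share of sites met by the other library. Density and the gap ratio are lower in the middle in 8 of 8 libraries.

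Some middle sites stood among the highest-scoring of their lists. The highest-scoring middle site of both seed and both leaf libraries lay at the same place on chromosome 19 (chr19:20657855-20658501 in leaf 1), and it ranked 4 and 3 in the seed lists and 2 and 3 in the leaf lists. The root libraries, which carry no score, held a site of 658 and 653 bp there. The highest middle site of flower 1 lay at chr15:29949546-29949853 and ranked 9 in its list, and that of flower 2 lay at chr17:23596295-23597422 and ranked 5. All 8 libraries held a site at each of these 3 positions. The site on chromosome 19 lies at 40.7% of the span, near the lower border.

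The site on chromosome 17 was also the longest reproducible region of the middle in each of the 4 tissues. A region is called reproducible where sites of the 2 libraries of a tissue share at least 20 bp. Each library listed a single site there, which measured 1105 and 1114 bp in the root lists, 1122 and 1099 bp for seed, 1127 and 1128 bp for flower, and 1122 and 1118 bp for leaf. Its width was thus nearly the same in root, whose lists have the narrowest median site. The next longest root regions lay at chr2:19922002-19923093 (1092 bp) and chr2:19802328-19803035 (708 bp).

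In seed the next longest lay at chr11:15833987-15834561 (575 bp) and chr1:26424577-26425149 (573 bp). In flower they lay at chr3:23958915-23959605 (691 bp) and chr14:20852846-20853446 (601 bp). In leaf they lay in the same place on chromosome 3 (chr3:23958920-23959765, 846 bp) and at chr14:21565954-21566750 (797 bp). The region on chromosome 3 was listed in 5 of 8 libraries and in neither root library. Among regions reproducible in leaf, flower and seed alike, the longest of the middle were again the one on chromosome 17, then chr2:19921979-19923093 (1115 bp) and chr9:24457892-24458690 (799 bp). Each of these 3 was listed in 8 of 8 libraries.

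The next question was whether middle sites repeat between the libraries of a tissue. In root 1, 864 of 2705 middle sites (31.9%, 95% Wilson interval 30.2 to 33.7) were met by root 2 with at least 1 bp, against 25.4% for the whole list. In root 2 it was 883 of 2847 (31.0%, 29.3 to 32.7), against 20.7% for the whole list. Pooled over the 19 chromosomes, the root middle was thus above its lists, by 8.07 and 12.1 percentage points over the rest. On 8 of 19 chromosomes, however, both root libraries had a lower share met in the middle than in the rest. Intervals cover counting error only, and neighbouring sites are not independent.

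In the other tissues the difference was smaller and mixed. In seed 1, 2686 of 4528 middle sites were met by seed 2 (59.3%, 57.9 to 60.7, against 56.4% for the list), and in seed 2, 2741 of 3762 were met by seed 1 (72.9%, 71.4 to 74.3, against 75.2%). In flower the counts were 1611 of 2321 (69.4%, 67.5 to 71.3, against 74.3%) and 1580 of 2627 (60.1%, 58.3 to 62.0, against 59.3%). In leaf they were 2705 of 3466 (78.0%, 76.6 to 79.4, against 79.4%) and 2714 of 3679 (73.8%, 72.3 to 75.2, against 81.2%). Both leaf libraries lay lower in the middle than in the rest, by 1.35 and 7.80 points. The overlap is mutual, so the tissue is the unit, and 4 tissues cannot go below p = 0.125 in the two-sided exact permutation test. The mean difference, middle minus rest, was 0.914 ± 6.42 points (SD, n = 4 tissues, exact permutation p = 0.875).

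Agreement in root varied widely between chromosomes. The mean share of middle sites met was 56.8% on chromosome 2 and 7.79% on chromosome 3. In the other tissues chromosomes lay closer together, between 59.2 and 70.9% for seed, 57.0 and 73.0% for flower, and 67.5 and 81.3% for leaf. With each list cut into 4 equal classes of site width, the widest class of root had 68.3 and 70.2% of its middle sites met, against 58.2 and 46.1% in the rest. In the narrowest class the shares were 8.03 and 7.57% in the middle and 8.65 and 6.996% in the rest. Narrow root sites therefore repeated little in either part. In leaf 2 the middle was lower than the rest in 4 of 4 classes of score, by 3.64 to 11.3 points. In leaf 1 the difference of middle minus rest lay between -1.15 and 0.069 points over the classes of score, and it was 4.98 in the narrowest class of width.

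Root held a larger share of its list than the other tissues in many windows of the middle. Of 179 windows of 1 Mb in the middle, both root libraries held a larger share of their list than the other 6 libraries in 134, or 74.9%, against 39.0% of the 956 windows of the genome. Both root libraries lay below the other 6 in 1 middle window, against 37.1% of all windows. With sites of at least 100 bp, a setting added after seeing the data, the first count was 71, or 39.7%, against 19.8% of all windows. Both flower libraries lay below the other 6 in 43 middle windows (24.02%), against 13.6% of all windows, and both seed libraries above in 4 (2.23%), against 8.26%. Shares are of each list's own sites, of which seed, flower and leaf have a far smaller part in the middle.

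The window of chromosome 2 that starts at 20000001 held 187 and 162 root sites, 72 and 49 seed sites, 42 and 18 flower sites, and 61 and 108 leaf sites. It was the densest middle window for root and, as a mean of both lists, for leaf. The next for root were those of chromosome 7 at 22000001, with 143 and 106 root sites, and of chromosome 12 at 22000001, with 135 and 100. In these windows seed held 38 and 23, and 20 and 9, flower 13 and 13, and 7 and 7, and leaf 34 and 63, and 18 and 43. Leaf 2 exceeded leaf 1 in each of the 3 windows.

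In seed and flower the densest middle window was that of chromosome 8 at 21000001, with 97 and 80 seed sites, 60 and 83 flower sites, 77 and 86 leaf sites and 13 and 15 root sites. Its neighbour at 22000001 came next in both, with 83 and 61 seed sites and 48 and 57 flower sites, and it ranked after these in leaf with 66 and 67. In seed the window of chromosome 11 at 15000001 followed, with 72 and 64 sites. In flower it was the window of chromosome 17 at 23000001, with 51 and 51 sites against 35 and 36 in leaf, whose lists are longer. That window holds the long site at 23596295.

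The 10 middle windows densest in root, on 7 chromosomes, were then set apart, a choice made after their values were seen. They hold 9.27 Mb of the middle and 34.2 and 26.2% of its root sites, against 6.65 and 5.64% of its seed sites, 7.88 and 4.72% of its flower sites and 7.47 and 12.4% of its leaf sites. Root density in them, which follows from the choice, was 99.8 and 80.3 sites per Mb, against 10.4 and 12.3 in the remaining middle. Root sites in them were wider, with a median of 99.0 and 92.0 bp against 67.0 and 65.0 bp, and the median gap between them was 739 and 1068 bp. Sites of the other tissues were narrower there, with 147 and 146 bp against 182 and 169 bp in seed. Flower had 137 and 145 bp against 162 and 169 bp, and leaf 149 and 150 bp against 194 and 182 bp. Dense root windows were not particular to the middle, which held the densest root window of a chromosome on 5 of 19 chromosomes. In the rest, the window of chromosome 5 at 16000001 held 260 and 174 root sites, and that of chromosome 20 at 14000001 held 204 and 140.

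The higher agreement of root in the middle was found in these windows. In them 50.4% (47.2 to 53.6) of root 1 sites and 64.8% (61.3 to 68.2) of root 2 sites were met by the other library. In the remaining middle the shares were 22.4% (20.5 to 24.4) and 19.03% (17.4 to 20.8), close to the 23.9 and 18.9% of the rest. The rest kept its own dense root windows, so these parts were not treated alike. Without the windows, root density in the middle was 0.642 and 0.590 of that in the rest, the median root gap was longer in the middle (46.4 and 42.3 kb against 29.9 and 24.9 kb), and the gap ratio of root was 0.495 and 0.530 in the middle against 0.487 and 0.520. The longer gap in the middle then passed the test over 8 libraries (mean log2 ratio 1.24, exact permutation, adjusted p = 0.0195), and the density call held. Windows were dropped by root count and from the middle alone, so the lower root density and longer root gaps follow from the choice. Neither call is therefore separate support. The mean difference in agreement over the 4 tissues was then -1.31 points, against 0.914 with the windows.

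The 2 leaf libraries parted in the same windows. Leaf 1 had 259 and leaf 2 had 456 middle sites there, and 87.3% (82.6 to 90.8) of the leaf 1 sites were met by leaf 2 while 48.7% (44.1 to 53.3) of the leaf 2 sites were met by leaf 1. In the remaining middle both were met in 77.3%. Flower 1 held 183 and flower 2 held 124 sites there, although flower 2 has the longer list. Outside the windows leaf 2 still lay below the rest, with 77.3% against 81.6%.

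**Figure D4:**
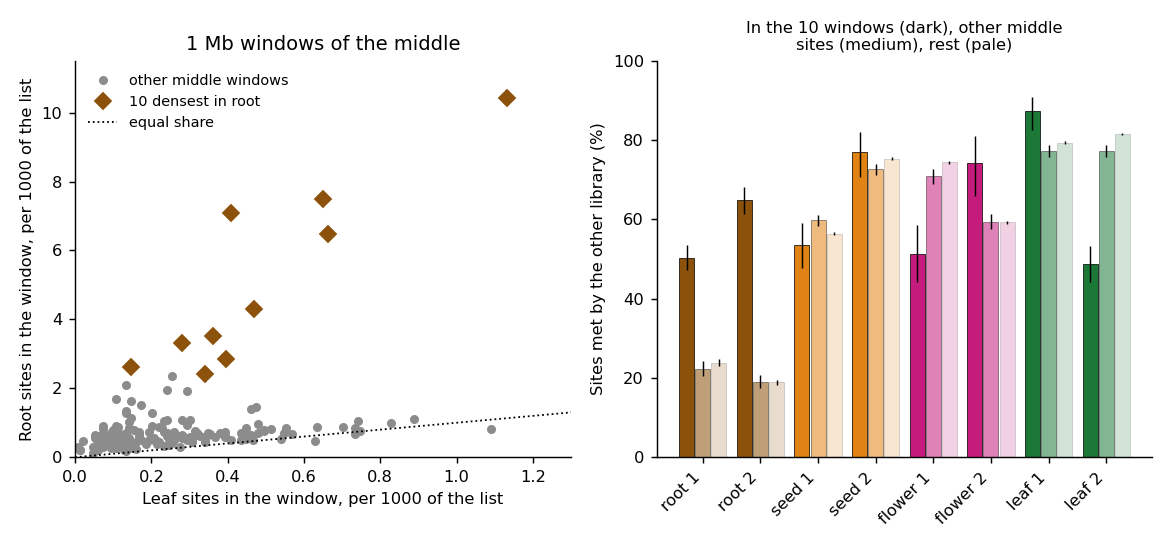
Left, root against leaf sites in each of 179 middle windows of 1 Mb, per 1000 sites of the list (mean of both libraries), with the 10 windows densest in root as diamonds and a dotted line of equal share. Right, the share of sites met by the other library in those windows (dark), in the remaining middle (medium) and in the rest (pale), with 95% Wilson intervals. Root 1 stands at 50.4%, 22.4% and 23.9% in the 3 parts.

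Regions reproducible in both libraries numbered 877 in root, 2767 in seed, 1629 in flower and 2754 in leaf in the middle. Root was the only tissue with more of them per Mb in the middle than in the rest, 4.86 against 3.87. The values were 15.3 against 58.2 in seed, 9.02 against 46.04 in flower and 15.2 against 74.5 in leaf. The 10 middle windows densest in root, which hold 9.27 Mb of it, held 485 of the 877 root regions. The remaining middle held 392, so the higher root value was not spread over the middle. The rest kept its own dense root windows.

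Regions that met no site of another tissue made up 28.2% (25.3 to 31.2, 247 of 877) of the middle in root, against 27.0% over all chromosomes. In seed it was 16.8% (15.5 to 18.2, 465 of 2767) against 13.1%, in flower 3.87% (3.03 to 4.92, 63 of 1629) against 4.71%, and in leaf 6.75% (5.88 to 7.75, 186 of 2754) against 9.62%. Middle minus rest was 1.21 points in root, 3.79 in seed, -0.856 in flower and -2.95 in leaf. Over the 4 tissues the mean difference was 0.297 ± 2.88 points (SD, exact permutation p = 0.875, with 0.125 the smallest possible). These intervals cover counting error only.

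The longest root-specific regions of the middle lay at chr4:28328919-28329167 (249 bp), chr12:22414013-22414204 (192 bp) and chr2:20030920-20031089 (170 bp). The regions on chromosomes 12 and 2 lie in windows where root sites crowd. The longest seed-specific regions lay at chr1:30013094-30013532 (439 bp) and chr1:30261335-30261636 (302 bp), and chr7:17882993-17883292 (300 bp). The first of these stood at score percentiles 78.6 and 76.6 of the seed lists.

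The longest flower-specific regions were shorter, at chr1:28021449-28021633 (185 bp), chr2:28000500-28000683 (184 bp) and chr8:20659664-20659833 (170 bp). The longest leaf-specific regions lay at chr12:21687760-21688247 (488 bp), chr2:26429092-26429411 (320 bp) and chr7:19664671-19664988 (318 bp). Long did not mean high in score: the region on chromosome 12 stood at percentiles 43.2 and 22.7 of the leaf lists. The window with the most flower-specific regions, on chromosome 17 from 23000001, held 8 of 63. For root it was that of chromosome 2 from 20000001, with 30 of 247, followed by that of chromosome 12 from 22000001, with 23. Both are among the 10 middle windows densest in root, so they hold many root regions of any kind. In those 10 windows 24.5% (20.9 to 28.6, 119 of 485) of the reproducible root regions were root-specific. In the remaining middle it was 32.7% (28.2 to 37.4, 128 of 392). No window held over 10 of the 465 seed-specific or over 6 of the 186 leaf-specific regions.

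When overlapping reproducible regions were joined across the 4 tissues, 4444 regions lay in the middle and 72178 in the rest. Those holding leaf, flower and seed, whether root was present or not, made up 22.3% (21.1 to 23.5) in the middle, against 23.8% over all chromosomes. This share moved between 16.2 and 25.7% when a library was left out, and it was lowest without root 1. Every site of the tissue's remaining library then counted as a region, and without root 1 the middle total was 6114. The range therefore takes in a changed definition of a region. Regions of a single tissue made up 52.0% (50.6 to 53.5), against 48.0%. Among them root alone and seed alone were more frequent in the middle than in the rest, and leaf alone and flower alone less. Regions of all 4 tissues made up 3.38% (2.88 to 3.95, 150 regions), against 1.27%. The middle thus had nearly the same share open in leaf, flower and seed as the genome and a larger share open in all 4 tissues. Regions holding root, alone or with others, made up 19.6% in the middle against 3.75% in the rest. Of these, 150 of 869 in the middle and 837 of 2705 in the rest held all 4 tissues, a smaller part in the middle. How far the number of root regions sets the share in all 4 tissues was not tested.

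Seed alone led in the middle and leaf alone in the rest. Regions of seed alone were the most frequent class in the middle, with 20.8% (19.6 to 22.0) against 16.1% in the rest, and regions of leaf alone held 15.6% (14.6 to 16.7) against 23.6%. Regions of root alone held 11.6% (10.7 to 12.6) against 1.79%, and regions of leaf and flower without seed or root 6.17% (5.50 to 6.91) against 11.9%. These shares are parts of a whole, so a class that gains lowers the others, and each class moves with the length of its lists. A region here needs both libraries of a tissue, so each class has a single value, and no test over samples was made.

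**Figure D5:**
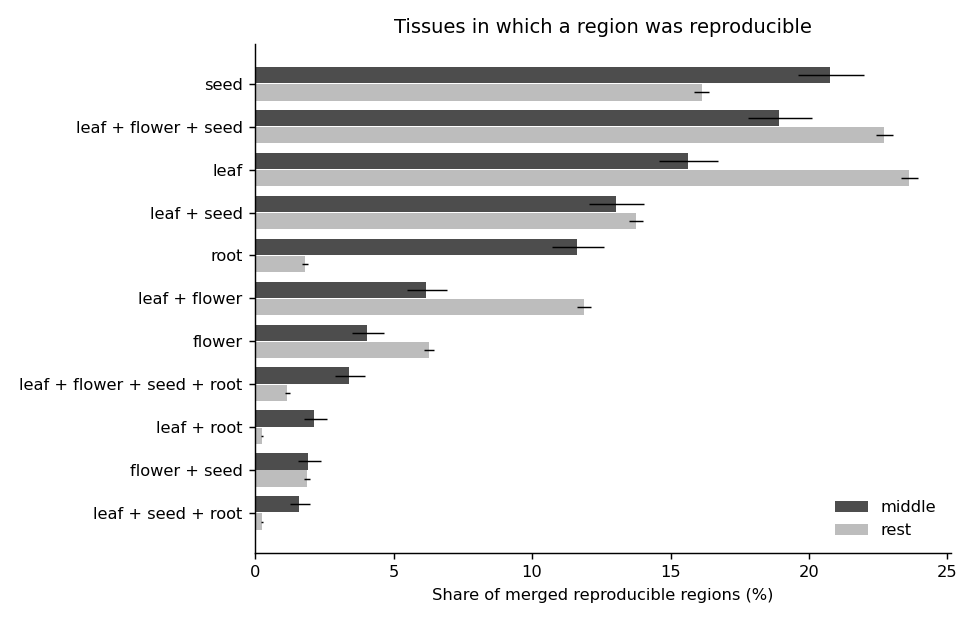
Share of the merged reproducible regions by the tissues in which they were reproducible, in the middle (dark) and the rest (pale), with 95% Wilson intervals, for the 11 classes most frequent in the middle. Seed alone leads in the middle with 20.8%, and root alone stands at 11.6% against 1.79% in the rest.

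Meetings between tissues changed with the partner. Of the reproducible leaf regions, 60.2% (58.4 to 62.1) met seed in the middle, against 51.5% in the rest, and of the flower regions 67.9% (65.6 to 70.1) met seed, against 56.8%. In return 62.4% (60.6 to 64.2) of the seed regions met leaf, against 68.5%, and 39.9% (38.1 to 41.7) met flower, against 45.3%. Flower regions met leaf in 82.6% in the middle and 81.8% in the rest. The share meeting seed was thus higher in the middle for leaf and flower, and the share of seed meeting them was lower. Both directions count nearly the same overlaps and move with the number of regions in each tissue. Reproducible regions per Mb numbered 15.3 in seed and 15.2 in leaf in the middle, against 58.2 and 74.5 in the rest. No test over samples was made on these shares.

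For root the 2 directions parted as well. Of the middle regions of the other tissues, 9.07% in seed, 11.1% in flower and 12.1% in leaf met root, against 2.64, 2.85 and 2.40% in the rest. Of the middle root regions, 27.5% met seed, 19.7% met flower and 37.9% met leaf, against 41.4, 35.5 and 48.3% in the rest. Within the 10 windows densest in root, 75.4% of the seed, 80.2% of the flower and 76.4% of the leaf regions met root, and in the remaining middle 4.81, 6.78 and 6.22% did. In return, 24.3% of the root regions in these windows met seed and 14.8% met flower. In the remaining middle 31.4 and 25.8% of the root regions did. The share of root regions meeting leaf is not given for these parts. The density of root sites moves with these shares, and its part in them was not tested.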

How the data were processed

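Each library was deposited as a list of sites, and the authors' lists are the starting point. The submitters' processing notes name Trimmomatic 0.36 and BWA 0.7.15-r1140. How sites were called, with which cut-off and on which genome build was not given in the sources used here. As deposited, the authors' score has no stated definition and was used as a rank. Starts were taken to count from 0 and are printed counting from 1. Repeated lines of the root lists, 479 and 649, were dropped.

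Gaps run from a site's end to the next start within a part. Reproducible regions are intersections of at least 20 bp between the libraries of a tissue. Tissue-specific regions meet no site of the 6 libraries of other tissues. Middle and rest were compared by exact sign-flip permutation over libraries, and tissues by the sum of squares between them over all pairings of the libraries, with Benjamini-Hochberg adjustment over 5 and 4 measures. Separate plants are not stated for the 2 libraries of a tissue. The p-values therefore reflect only how libraries vary, which may be technical. Regions were named by a fixed rule: the longest 3 per tissue and class, the 3 densest windows per tissue, the highest-scoring middle site per list and the chromosomes of extreme density. The members, lists and rules were chosen with earlier results of these data known. Replicate numbers gave no consistent pairing of the libraries (6 tissue pairs, correlation of deviations from -0.263 to 0.109). Whether libraries of different tissues shared a batch was not tested. The functions were tested on simulated data. Python 3.11.15, numpy 2.4.6 and scipy 1.17.1 were used. Alternatives covered the width minimum, the borders of the middle, the choice of libraries and of windows. Leaving out the 10 windows densest in root was chosen after seeing the data.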

Additional observations from a re-analysis of the deposited data

Results flagged for a closer look

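Tissues differed in the ratio of middle to rest in site density (exact permutation, adjusted p = 0.0254), in median width (exact permutation, adjusted p = 0.0254) and in median gap (exact permutation, adjusted p = 0.0254), and these were picked out because the test of the difference itself passed.

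Root and leaf moved in opposite directions in replicate agreement. Pooled over chromosomes, both root libraries had a higher share of sites met in the middle than in the rest and both leaf libraries a lower one, a difference of 14.7 percentage points between the tissue means. By chromosome, both root libraries were lower in the middle on 8 of 19, and both leaf libraries on 13. The 2 libraries of a tissue share the same overlaps, so they are not independent here. Without the 10 middle windows densest in root, root had 22.4 and 19.03% in the middle against 23.9 and 18.9% in the rest, so its 2 libraries no longer moved the same way. No dense windows were dropped from the rest. Seed and leaf moved in opposite directions in score rank, with both seed libraries higher in the middle and both leaf libraries lower, a difference of 4.85 percentile points. Middle minus rest was 2.25 and 5.19 points in seed and -2.16 and -0.102 in leaf, so leaf 2 hardly moved. Neither of these differences was tested.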

How the results depend on the processing

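Of 211 alternative values for 13 results, 168 kept their direction and side of the threshold or stayed within their error, 23 no longer passed, 5 newly passed, 14 moved and 1 reversed. The causes of these changes were not tested. Some alternatives could not move a result, such as leaving out root for the score rank, which the root lists lack. For replicate agreement the error was the SD over tissues, 6.42 points, which also covers the change of sign to -2.14 without root. The count of unchanged values is therefore no measure of stability.

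The mean log2 density ratio of middle to rest was -1.53 with sites of at least 100 bp (exact permutation, adjusted p = 0.0781) and -2.15 without root (exact permutation, adjusted p = 0.0521). The unadjusted exact permutation p without root, 0.03125, is the smallest 6 libraries allow, so the lost call says nothing of stability. The mean difference in the gap ratio was -0.152 without root, with the same p, and -0.102 without the 10 middle windows densest in root, which did not pass. The log2 gap ratio passed at 0.92 with a middle of 45 to 55% and at 1.24 without those windows. They were dropped by root count and from the middle alone, so longer root gaps there follow from the choice. The log2 width ratio reversed to 0.050 in sites from the median width upwards.

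For tissue differences, the adjusted exact permutation p without root was 0.133 for density, 0.133 for width and 0.133 for spacing. Leaving out a library in turn, it ran between 0.0190 and 0.0762 for density, 0.0190 and 0.140 for width, 0.0190 and 0.0762 for spacing, and 0.0190 and 0.324 for the gap ratio. In sites from the median width upwards it was 0.0857 for width. For the gap ratio the difference did not pass as reported (0.0857) and passed in sites from the median width upwards (0.0190) and without the 10 windows (0.0127). Those windows were chosen by root count in the middle alone, so the last pass is not separate support.

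With the replicate number as a block (replicate block), the adjusted exact permutation p was 0.111 for density, 0.0833 for width, 0.0833 for spacing and 0.167 for the gap ratio, where 24 pairings remain. For width and spacing the unadjusted exact permutation p, 0.0417, is the smallest these pairings allow. For density it was 0.0833, above that smallest value. The correlations between replicate deviations cannot decide whether the number is a block.

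The mean difference in tissue-specific share was 3.69 points against the outer 20% at each end, and -0.252 to 3.98 points as a library was left out. The share of merged regions holding leaf, flower and seed was 24.1% with sites of at least 100 bp, 16.1% from the median width upwards, 25.2% without root and 16.2 to 25.7% as a library was left out. When a library was left out, every site of the tissue's remaining library counted as a region. Both of these ranges therefore take in a changed definition. The count of windows with both root libraries above was 71 with sites of at least 100 bp. Read depth is unknown, so absent sites cannot be told from missed ones.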
